A study of Mus musculus with 2 samples.

Results

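Olig1, Olig2, Pdgfra, Gpr17 and Bcan, 5 of the 500 genes of a MERFISH panel, were followed through the heads of 1 control and 1 Dnmt1 KO mouse at E16.5, each cut as 1 coronal section. They were chosen as a set of genes of the oligodendrocyte lineage, and were described by the order in which they shared single cells, by their place between the subpallial ventricular zone and the cortex, and by the classes of cells that held them. MERFISH reads single RNA molecules in tissue from barcodes imaged over repeated rounds. Both animals carried Sst-Cre and a tdTomato reporter, and the KO animal carried loxP-flanked Dnmt1 (Dnmt1 loxP2) in addition. Cre is driven by Sst, the gene of somatostatin, so the deletion is aimed at cells that express Sst, in the cortex a class of interneurons. Dnmt1 is not on the panel, so the deletion could not be checked from these counts. Each group is 1 section of 10 µm, so no test was run, and run, depth, section plane and genotype cannot be told apart.

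Oligodendrocytes, the cells that make myelin, arise in the embryonic forebrain from ventricular zone progenitors, first in the subpallium, and their precursors then move out through the mantle and into the cortex. Olig1 and Olig2 are basic helix-loop-helix transcription factors. Olig2 is also made by ventral progenitors that give rise to neurons. Pdgfra is the receptor for platelet-derived growth factor and marks oligodendrocyte precursors, and it is also the receptor of many mesenchymal cells. Gpr17 is a G protein-coupled receptor of the committed, not yet myelinating stage. Bcan (brevican) is a proteoglycan of the brain's extracellular matrix, made by precursors and by astroglia.

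Olig1 and Olig2 are neighbours in the mouse genome. In the RefSeq annotation of GRCm38.p6, Olig2 lies at chr16:91225550-91228677 and Olig1 at chr16:91269769-91271939, with 41091 bases between them. Pdgfra lies at chr5:75151322-75198206 and Bcan at chr3:87987531-88002175. The sequences of 250 bases before the transcription start are shown for Olig2 and Pdgfra, since the results below turn on how these genes part company along the lineage and since the Olig proteins bind E-boxes (CANNTG, its own reverse complement). They are given 5′ to 3′ on the gene's strand, with any E-box in capitals. The Olig2 window is chr16:91225300-91225549 (+) and the Pdgfra window is chr5:75152001-75152250 (+), both upstream of the start in RefSeq's promoter entry. The Pdgfra start of that entry lies within the annotated span of the gene, so its window is inside that span and not before its first base.
Olig2: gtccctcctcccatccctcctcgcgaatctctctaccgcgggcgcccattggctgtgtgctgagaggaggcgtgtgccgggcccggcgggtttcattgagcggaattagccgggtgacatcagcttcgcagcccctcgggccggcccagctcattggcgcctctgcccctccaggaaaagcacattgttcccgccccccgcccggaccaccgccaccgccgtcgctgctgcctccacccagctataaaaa
Pdgfra: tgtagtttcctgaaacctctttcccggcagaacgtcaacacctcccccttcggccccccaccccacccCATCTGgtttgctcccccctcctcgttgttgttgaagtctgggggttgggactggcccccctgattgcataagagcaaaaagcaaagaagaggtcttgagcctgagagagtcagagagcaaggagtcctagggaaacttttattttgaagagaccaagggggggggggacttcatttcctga
The Olig2 window held 0 E-boxes. The Pdgfra window held 1, which begins 182 bases before the start. The window of Bcan (chr3:88000357-88000606, minus strand), also inside the span of its gene, held 0. Of 32851 promoter windows of this length in the table, 66.2% held at least 1. These letters are a description and were not tested for binding.

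The sections differed in depth. The minimum of 20 panel transcripts per cell was reached by 55231 of 108533 control cells and by 101250 of 110004 KO cells, with medians over all cells of 20 and 101 transcripts. Brain tissue was separated from the other head tissue, and pallium (the developing cortex) from subpallium, by genes that are not among the 5. Within each, a progenitor zone was separated from the mantle by Top2a and Sox9, which are not among the 5 either. Mantle here means the rest of the region, and dividing cells were not excluded from it. The brain held 39685 control and 76528 KO cells over the minimum. Levels are counts per 1000000 panel transcripts (CPM) in these cells, with exact 95% intervals in brackets that cover counting error only. Blank barcodes, which code for no gene, reached at most 262 CPM in the control and 240 CPM in the KO section. No cell identifier occurred in both sections.

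Over the brain, Olig1 stood at 3012 CPM [2924 to 3102] in the control and 1183 CPM [1161 to 1205] in the KO section. Olig2 stood at 3005 CPM and 1907 CPM. The receptors were nearer to each other across sections, Pdgfra at 808 CPM and 892 CPM and Gpr17 at 431 CPM and 356 CPM. Bcan stood at 883 CPM and 555 CPM. All 5 lay above the highest blank code of the brain, 307 CPM in the control and 233 CPM in the KO section. Levels were not compared between genes, since probe number and transcript length differ.

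The genes differed in where they lay. Olig2 was highest in the subpallial progenitor zone, at 17256 CPM [16400 to 18145] in the control and 12143 CPM [11870 to 12421] in the KO section. It measured 2238 CPM and 1417 CPM in the subpallial mantle and 1341 CPM and 674 CPM in the pallial mantle. The pallial progenitor zone lay between, at 4495 CPM and 1816 CPM. That order of Olig2 across the 4 brain regions was the same in both sections, with no overlap of neighbouring intervals.

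Olig1 showed no such peak in the zone. In the control section it measured 3558 CPM in the subpallial progenitor zone, 3260 CPM in the subpallial mantle, 3975 CPM in the pallial progenitor zone and 2218 CPM in the pallial mantle. The interval of the subpallial zone overlapped those of the subpallial mantle and of the pallial zone. In the KO section the same regions held 1087, 1309, 1352 and 933 CPM. The pallial mantle was lowest for Olig1 in both sections, and within a section its levels differed far less between regions than those of Olig2.

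Gpr17 had the opposite place to Olig2. It lay at 147 CPM [78.4 to 252] and 138 CPM [110 to 170] in the subpallial progenitor zone, and at 72.5 CPM and 44.4 CPM in the pallial one. These levels are below the highest blank code of the subpallial zone (476 CPM and 307 CPM), so Gpr17 was not distinguished from false decoding there. In the mantles it reached 513 CPM [467 to 563] and 428 CPM [411 to 445] below the pallium, and 394 CPM and 317 CPM within it. Gpr17 was higher in the subpallial than in the pallial mantle in both sections, with intervals that did not overlap. The highest blank codes of the pallial mantle were 411 CPM and 289 CPM, so the control level there was not above them.

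Pdgfra in the brain followed Gpr17 more weakly. Its levels were 567 CPM [420 to 747] and 597 CPM [538 to 661] in the subpallial progenitor zone against 850 CPM and 945 CPM in the subpallial mantle. The control interval of the zone contained the highest blank code there, 476 CPM. The pallial mantle held Pdgfra at 821 CPM [738 to 911] and 880 CPM [846 to 915]. In the pallial progenitor zone Pdgfra measured 556 CPM [407 to 741] and 735 CPM [660 to 816], and the control intervals of zone and mantle overlapped. In the KO section the pallial zone was by value not the lowest region for Pdgfra, as it was for Gpr17. The KO Pdgfra intervals of the pallial and subpallial zones just overlapped, so their order is not resolved. Outside the brain, Pdgfra was over 10 times as high as in the brain in each section, at 8789 CPM [8591 to 8990] and 11104 CPM [10999 to 11210]. Among the brain regions, Bcan was highest in the pallial progenitor zone, at 5280 CPM [4797 to 5799] and 3341 CPM [3179 to 3510]. That zone was not its only dense site. A midline patch centred in the subpallial mantle, described below, held Bcan at 6423 CPM [5475 to 7489] and 2812 CPM [2497 to 3157]. The control interval of the patch overlapped that of the pallial zone, and the KO interval lay below it. In the subpallial zone Bcan measured 986 CPM and 681 CPM, and in the pallial mantle 443 CPM [382 to 511] and 302 CPM [282 to 323]. The latter intervals held the highest blank codes of that mantle, 411 CPM and 289 CPM.

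**Figure D1:**
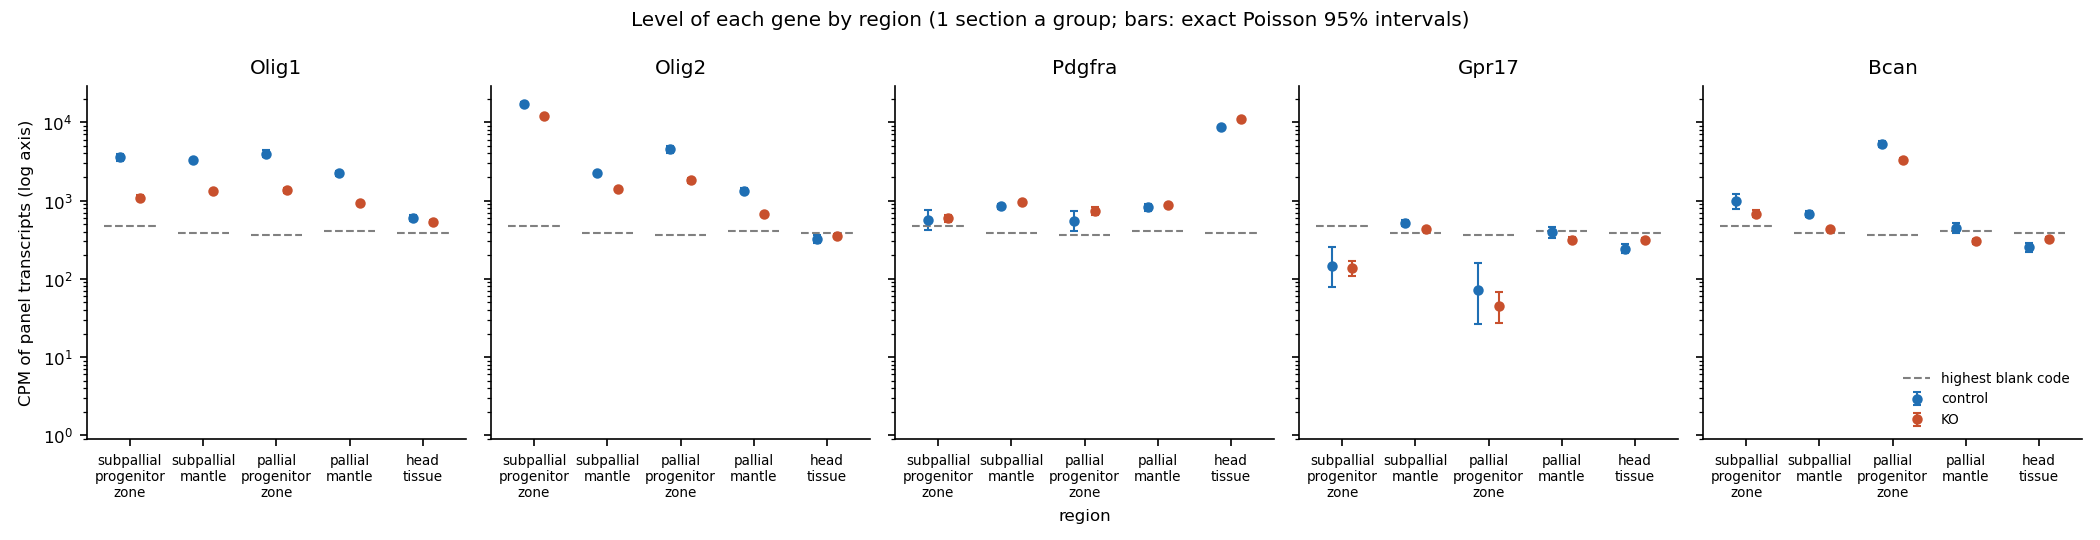
Level of each gene (CPM of panel transcripts, log axis) in 4 brain regions and in head tissue outside the brain, 1 section a group, with exact Poisson 95% intervals as bars and the highest blank code of either section as dashes. Olig2 was highest in the subpallial progenitor zone (17256 and 12143 CPM), Bcan in the pallial one (5280 and 3341 CPM), Pdgfra outside the brain (8789 and 11104 CPM), and Gpr17 lay below the dashes in both progenitor zones.

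Distance from the subpallial progenitor zone gave the same order in finer steps. Olig2 in the subpallial mantle measured 6849 CPM within 100 µm of the zone in the control and 4275 CPM in the KO section. From 100 to 200 µm it measured 2760 CPM and 1167 CPM, and from 600 to 900 µm 1594 CPM and 1123 CPM. The zone held 9.36 times (control) and 11.0 times (KO) the Olig2 of the mantle beyond 200 µm. Gpr17 ran the other way. In the control it measured 287 CPM within 100 µm, 495 CPM from 200 to 400 µm and 562 CPM from 600 to 900 µm. In the KO section the same steps held 174, 399 and 515 CPM. Pdgfra went from 430 CPM and 618 CPM within 100 µm to 894 CPM and 1019 CPM from 600 to 900 µm. Its control interval within 100 µm, 276 to 640 CPM, contained the highest blank code of the subpallial mantle. Those codes were 388 CPM (control) and 301 CPM (KO), and Gpr17 within 100 µm lay below them. Beyond 900 µm, a step of 1457 control and 633 KO cells, Pdgfra was at its highest in both sections (1188 and 1641 CPM), as was Gpr17 in the KO section (893 CPM). In the control the interval of Pdgfra there overlapped that of the step before, and Gpr17 measured 505 CPM [356 to 696]. Control Olig2 was higher again there, at 2116 CPM [1796 to 2477], above its interval from 600 to 900 µm, 1446 to 1752 CPM. Olig2 in the control thus did not fall at every step. A regional CPM cannot tell fewer cells of a type from less RNA per cell.

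**Figure D2:**
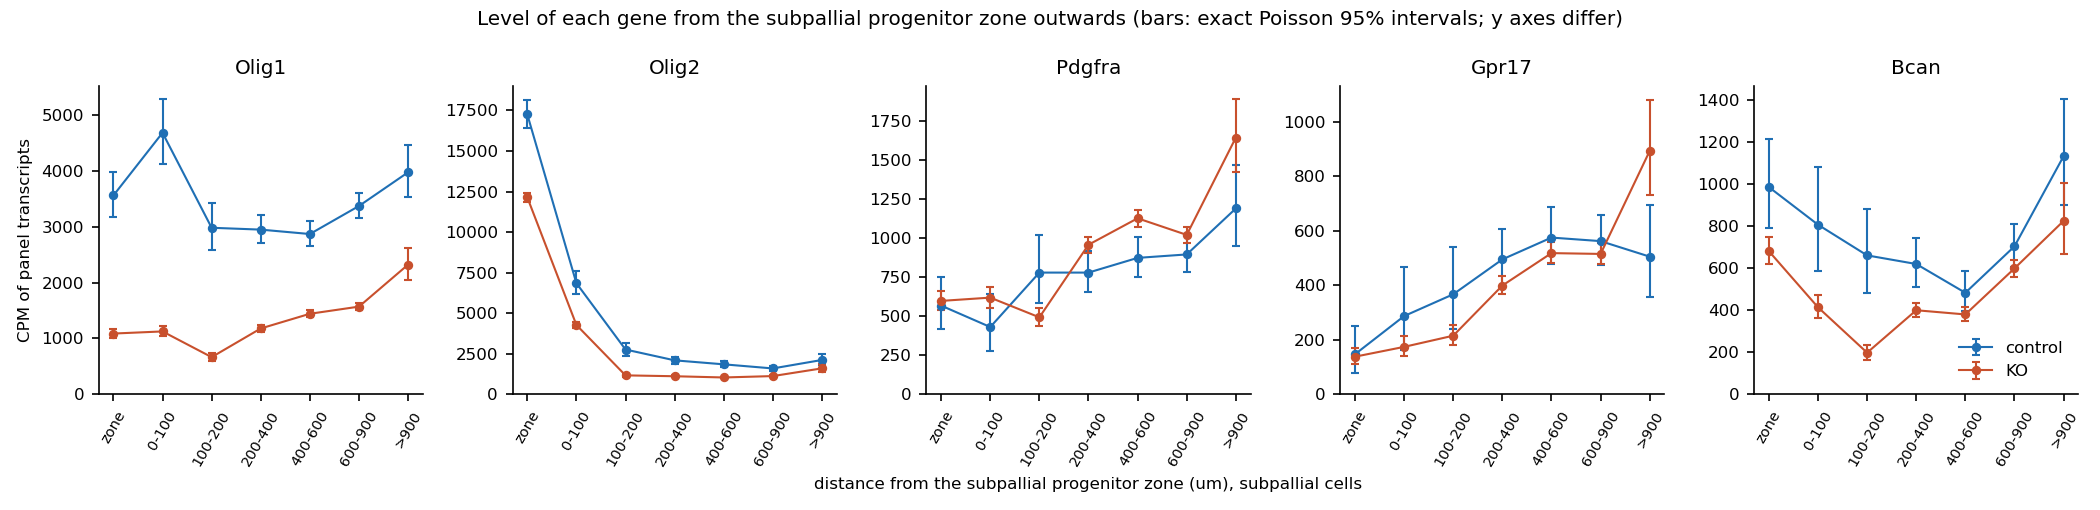
Level of each gene (CPM) in the subpallial progenitor zone and in steps of distance (µm) from it through the subpallial mantle, 1 section a group, with exact Poisson 95% intervals. Olig2 went from 17256 to 2760 CPM (control) and from 12143 to 1167 CPM (KO) by the step of 100 to 200 µm, while Gpr17 went from 147 to 562 CPM and from 138 to 515 CPM by the step of 600 to 900 µm.

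In the cortex, distance was taken from the pallial progenitor zone. Bcan went there from 1268 CPM and 846 CPM within 100 µm to 302 CPM and 229 CPM beyond 300 µm. The far values of Bcan lay below the highest blank codes of the pallial mantle, 411 CPM and 289 CPM. Pdgfra in the KO section went from 476 CPM within 100 µm to 1055 CPM beyond 300 µm, and in the control from 623 CPM to 890 CPM, where the intervals overlapped. Gpr17 beyond 300 µm stood at 426 CPM and 397 CPM. Olig2 differed between the sections here. It went from 2114 CPM to 1127 CPM in the control, and went from 537 CPM to 738 CPM in the KO section.

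Co-expression was read in cells thinned at random to 25 transcripts, so that deep cells did not hold every gene. For each pair the number of cells that held both genes was divided by the number that the product of their shares gives. Over the whole section 7 of the 10 pairs reached at least 3 times that number in each section. Among all 31125 pairs of panel genes that reached the median level, 1.44% did so in the control section and 2.31% in that of the KO. Gpr17 lay below that median over the section and in the brain, so its 4 pairs are not among these. The highest ratio over the section was that of Olig1 with Gpr17, 10.2 and 16.4. The lowest was that of Olig2 with Pdgfra, 1.30 and 1.27, and Pdgfra with Olig1 and with Bcan also stayed under 3. Pdgfra with Gpr17 measured 5.92 [4.93 to 7.05] and 5.95 [5.22 to 6.75]. The 3 pairs under the limit all contain Pdgfra, whose transcripts lie mostly outside the brain.

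Within the brain all 10 pairs passed, against 1.17% of panel pairs in the control section and 1.59% in that of the KO. The brain was taken alone after the whole-section values had been seen. Pdgfra with Gpr17 then headed the order, at 30.5 [25.1 to 36.9] on 108 control cells and 32.7 [28.4 to 37.5] on 205 KO cells. Olig1 with Gpr17 followed at 9.99 and 17.8, and Olig1 with Pdgfra at 8.97 and 14.6. Olig1 with Olig2 measured 5.16 and 6.56. Olig2 with Bcan was lowest, at 4.00 and 4.27. The first and the last pair of this order were the same in both sections and their intervals lay far apart.

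Zones and mantles gave different orders. In the mantles all 10 pairs passed 3 times, with a median of 10.0 in the control section and 13.2 in that of the KO. In the progenitor zones 1 control pair and 2 KO pairs did. Olig2 with Bcan there measured 0.859 and 0.913, and Olig1 with Olig2 2.05 and 2.24. These values pool a zone rich in Olig2 with one rich in Bcan, which lowers the ratio of that pair. Taken zone by zone, after the pooled values had been seen, Olig2 with Bcan measured 1.66 [1.02 to 2.57] and 1.81 [1.32 to 2.43] in the subpallial zone and 1.30 [0.825 to 1.95] and 1.45 [0.843 to 2.32] in the pallial one. Olig1 with Olig2 measured 1.46 [1.11 to 1.88] in the control subpallial zone, where the KO interval was 1.14 to 1.94, and 4.46 [3.35 to 5.82] and 8.85 [5.93 to 12.7] in the pallial zone. In the mantles, taken singly, Olig2 with Bcan measured 5.85 and 7.25 below the pallium and 12.4 and 11.7 within it. Pdgfra with Gpr17 rested on 3 cells in each section there, so its ratio in the zones is not read.

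**Figure D3:**
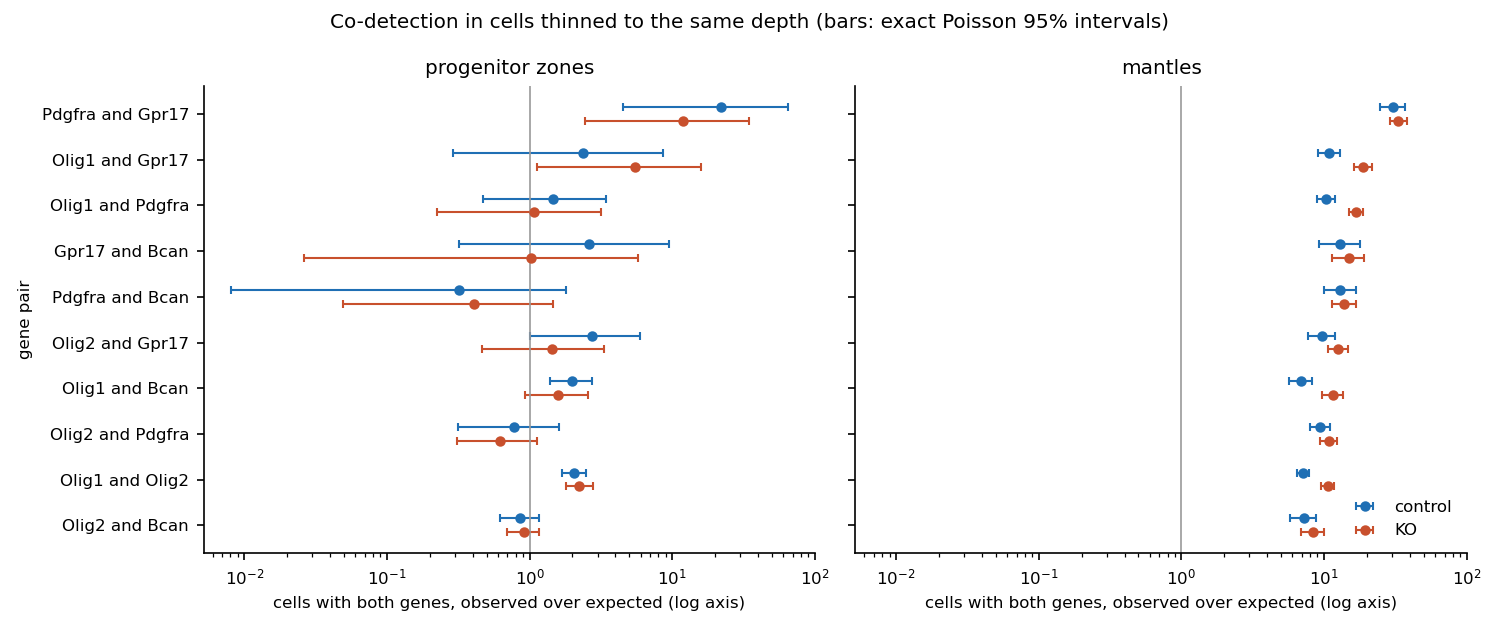
Cells holding both genes of a pair over the number expected from the product of their shares (log axis, cells thinned to 25 transcripts, exact 95% intervals), in progenitor zones and in mantles of the brain, 1 section a group. In the mantles all 10 pairs lay above 3 with Pdgfra and Gpr17 highest (30.5 and 33.2), while in the pooled zones Olig2 with Bcan lay just under 1 (0.859 and 0.913), against 1.66 and 1.81 in the subpallial zone and 1.30 and 1.45 in the pallial zone taken singly.

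The order was asymmetric. Of control brain cells with Gpr17, 43.9% [37.6 to 50.3] also held Pdgfra after thinning, and of those with Pdgfra 24.9% [20.9 to 29.2] held Gpr17. The KO values were 42.1% and 21.2%. Olig2 stood at the wide end. Of cells with Gpr17, 38.2% and 30.4% held Olig2, and of cells with Olig2, 5.37% and 4.70% held Gpr17. The number of cells that held each gene sets this asymmetry: after thinning Olig2 was found in 5.80% and 4.18% of brain cells, Pdgfra in 1.44% and 1.29%, and Gpr17 in 0.815% and 0.648%. Without thinning these shares were 7.55% and 11.3%, 1.75% and 3.68%, and 1.01% and 2.0%, so the order of the sections turned with depth for all 3 genes.

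The deeper KO section allowed cells to be followed by their own count of a gene, here without thinning. Of 139 brain cells with at least 6 Gpr17 transcripts, 100% [97.4 to 100] held Pdgfra, 99.3% Olig1, 97.1% Olig2 and 87.1% Bcan. Of 1014 cells with 1 Gpr17 transcript, 29.7% held Pdgfra, 32.5% Olig1, 29.7% Olig2 and 13.7% Bcan. Cells high in Gpr17 thus held nearly the whole set. Of 388 cells with at least 6 Pdgfra transcripts, 87.4% [83.6 to 90.5] held Gpr17, 93.0% Olig1 and 88.9% Olig2. Of 581 cells with at least 6 Olig2 transcripts, 35.5% [31.6 to 39.5] held Pdgfra, 28.6% Gpr17, 66.3% Olig1 and 45.4% Bcan. For each receptor the share among cells high in Olig2 lay below that among cells high in the other receptor, with intervals that did not overlap. Median depth also went with the count, from 151 to 196 transcripts for Gpr17, from 153 to 182 for Pdgfra and from 115 to 197 for Olig2, and its part in these shares was not tested. In the control, of 51 cells with 3 to 5 Gpr17 transcripts, 82.4% [69.1 to 91.6] held Pdgfra and 92.2% Olig1.

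**Figure D4:**
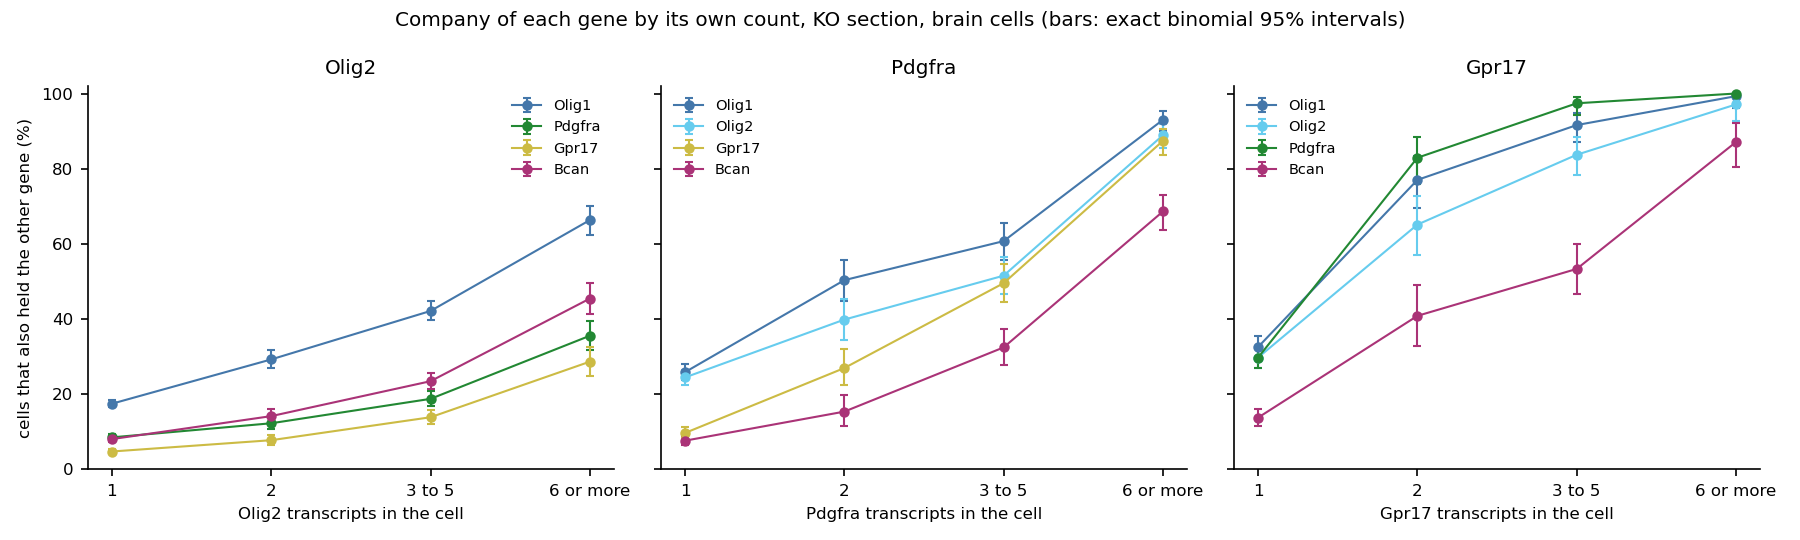
Share (%) of KO brain cells holding each of the other genes, by the cell's own count (1, 2, 3 to 5, 6 or more) of Olig2, Pdgfra or Gpr17, without thinning, 1 section, exact binomial 95% intervals. At 6 or more transcripts, 100% of Gpr17 cells held Pdgfra and 87.4% of Pdgfra cells held Gpr17, but 28.6% of Olig2 cells held Gpr17.

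The transcripts of each gene were also sorted by the company of their cells. Cells with at least 3 of the 5 genes are chosen by these genes' own counts, and the number of cells holding each gene enters too. The shares are thus a description and no further support for the order. Cells with at least 3 of the 5 genes held 70.8% of the control and 77.1% of the KO brain transcripts of Gpr17. They held 60.3% and 70.7% of Pdgfra, 29.6% and 54.6% of Olig1, 27.3% and 36.5% of Bcan, and 18.8% and 26.8% of Olig2. Olig2 transcripts lay alone, in cells with none of the other 4, at 56.3% and 51.7%. For Bcan this share was 52.1% and 47.0%, for Olig1 39.6% and 21.3%, for Pdgfra 22.4% and 19.6%, and for Gpr17 13.7% and 15.1%. By transcripts, Gpr17 and Pdgfra were the genes of shared cells, and Olig2 and Bcan the genes most often met alone. By cells the shares met alone were higher, 20.8% and 32.8% for Gpr17, 32.6% and 42.8% for Pdgfra, 53.3% and 40.6% for Olig1, 55.4% and 55.0% for Bcan and 63.4% and 64.6% for Olig2, and KO Pdgfra then did not lie below Olig1.

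Single molecules, read without any cell outline, gave the same pairing. Of brain Gpr17 molecules, 53.2% [49.7 to 56.6] in the control section and 77.2% [75.8 to 78.5] in that of the KO had a Pdgfra molecule within 5 µm. Of panel molecules drawn at random, 1.35% and 4.24% did, and of blank molecules 1.17% and 4.41%. Of Bcan molecules, 10.2% and 19.7% did.

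Cells with at least 3 of the 5 genes, called lineage cells here, numbered 538 in the control section (0.974% [0.894 to 1.06]) and 1823 in the KO section (1.80% [1.72 to 1.88]). After thinning to 25 transcripts the shares were 0.624% and 0.359%, so the order of the sections turned with depth and no direction is read. In the brain there were 499 (1.26%) and 1525 (1.99%). Of these, 61.1% and 63.2% lay in the subpallial mantle, which held 57.7% and 55.9% of all brain cells. The pallial mantle held 26.7% and 23.3% of them, against 28.9% and 31.2% of all cells. The combination of Olig1, Olig2 and Bcan was met in 24.6% and 24.5% of lineage cells, the most frequent in both sections. All 5 genes together were met in 7.82% of them in the control and 21.3% in the deeper KO section. The name is a label for the rule. By other markers, 4.81% and 16.3% of brain lineage cells were classed as cortical and 5.41% and 13.0% as striatal projection neurons.

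Cells of 2 kinds had different places and different company. Cells with both Pdgfra and Gpr17 numbered 208 in the control and 787 in the KO brain, of which 191 and 700 held at least 1 more of the 5 genes and so were lineage cells as defined here. Cells with Olig1, Olig2 and Bcan but neither receptor numbered 123 and 374. Of the first kind, 70.7% and 68.4% lay in the subpallial mantle and 27.4% and 29.6% in the pallial mantle, and 4 and 13 cells lay in the subpallial zone. Of the second kind, 40.7% and 50.3% lay in the subpallial mantle, 18.7% and 6.95% in the pallial mantle, 14.6% and 17.6% in the subpallial zone and 26.0% and 25.1% in the pallial zone. Their median distance from the subpallial zone was 90.1 µm and 103 µm, against 565 µm and 526 µm for cells with Pdgfra and Gpr17. In each section the cells with the receptors were the more distant. Sox9, from which the zones were drawn, was higher in the second kind, as given below. These places and distances are thus not independent of the map.

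The genes outside the 5 that stood out in each kind were picked by their fold over the other brain cells after the values had been seen, and are a description. Cells with Pdgfra and Gpr17 held Cspg4 (NG2, a proteoglycan of oligodendrocyte precursors) at 33231 CPM in the control and 9553 CPM in the KO section, 47.1-fold and 29.4-fold over the others. Serpine2 followed at 8.86-fold and 7.33-fold, and Bmp7, a bone morphogenetic protein, at 6.30-fold and 4.87-fold. Cells with Olig1, Olig2 and Bcan but neither receptor were led instead by Egfr, the epidermal growth factor receptor, at 16.6-fold and 12.9-fold. Ednrb, an endothelin receptor of glia, stood at 6.99-fold and 7.56-fold in them (5.24-fold and 2.78-fold in the first kind), and Mfge8, made by radial glia and astrocytes, at 6.09-fold and 5.78-fold. Sox9, a glial transcription factor, was over 2-fold in both kinds, at 2.63 and 2.13 in the first and 4.84 and 4.86 in the second. By markers outside the 5 genes, 74.0% and 85.3% of the second kind fell into the astroglial or radial glial class, against 30.8% and 32.0% of the first. Ednrb, Mfge8 and Sox9 are markers of that class, so its shares are not separate from their folds. Of the first kind, 4.81% and 19.7% were classed as cortical and 7.21% and 17.7% as striatal projection neurons. A further 5.29% and 9.53% were classed as MGE-derived interneurons, and 51.0% and 15.9% had no class.

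Likeness to each gene over the whole section was measured by the same co-detection ratio. The 3 genes most like Gpr17 were Cspg4 (7.01 and 6.65), Serpine2 (4.42 and 4.05) and Ednrb (4.02 and 4.25). Those of Olig1 were Ednrb (3.0 and 3.59), Aldh1l1 (2.97 and 3.16) and Cspg4 (2.28 and 3.45). For Olig2 they included Aldh1l1, an enzyme of astroglia (5.18 and 5.72), and Ednrb (4.26 and 5.06). For Bcan they were Hopx (6.88 and 5.98), Aldoc (5.74 and 5.13) and Mfge8 (3.65 and 3.73), all known from radial glia or astrocytes. Pdgfra stood apart, with Osr1 (3.57 and 4.58), Dcn (3.42 and 4.58) and Bmp4 (3.43 and 4.25). Dcn (decorin) and Osr1 are genes of mesenchyme. In brain cells alone, Cspg4 took the first place for Pdgfra (17.3 and 18.9), Gpr17 (22.0 and 21.4) and Olig1 (6.23 and 9.84).

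Olig1 was densest in a patch near the midline. Its centre was the bin with the highest Olig1 level, in the subpallial mantle, 215 µm from the line between the hemispheres in the control and 134 µm in the KO section. Within 250 µm of it lay 698 control cells (1.76% of brain cells) with 15.6% of the Olig1 transcripts, and 645 KO cells (0.843%) with 7.87%. In the KO section Olig2 and Bcan peaked in the same bin as Olig1, and Pdgfra and Gpr17 peaked 112 µm from it. In the control the other genes peaked 749 to 1914 µm from the Olig1 peak. Since the peak of Olig1 chose the patch, its Olig1 level and the place of cells that must hold Olig1 are given only as a description. Olig1 measured 27152 CPM inside against 2587 CPM outside in the control and 8662 against 1101 CPM in the KO section. Olig2 was 7.73-fold and 3.77-fold over the rest there, and Bcan 8.18-fold and 5.30-fold. Gpr17 was 1.19-fold in the control, 512 CPM [273 to 876] against 430 CPM [397 to 465], and 3.17-fold in the KO section, and Pdgfra was 1.93-fold and 4.70-fold. Of the control cells with Olig1, Olig2 and Bcan but neither receptor, 46.3% [37.3 to 55.6] lay in the patch, and of the KO cells 13.4% [10.1 to 17.2]. Of the cells with Pdgfra and Gpr17, which need not hold Olig1, 2.88% and 3.43% did. Of the other genes, named here after their values were seen, Igfbp5 (13.4-fold and 5.77-fold) led in the control and Bmp7 (3.52-fold and 8.40-fold) in the KO section. The 4 microglial markers of the panel summed to 5084 against 1381 CPM (control) and to 5566 against 1020 CPM (KO), led by Cx3cr1 (4.23-fold and 6.60-fold), while the intervals of Aif1 overlapped. The 4 endothelial markers summed to 1.99-fold and 2.09-fold, and the 2 Cajal-Retzius markers to 1.98-fold and 3.07-fold, with 1 of the 2 higher. The 9 astroglial markers summed to 78972 against 25188 CPM in the control but to 20029 against 21783 CPM in the KO section. The patches thus differed in these marker levels, and the cells of each class in them were not counted. The part of such cells in the patch's values was not tested.

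**Figure D5:**
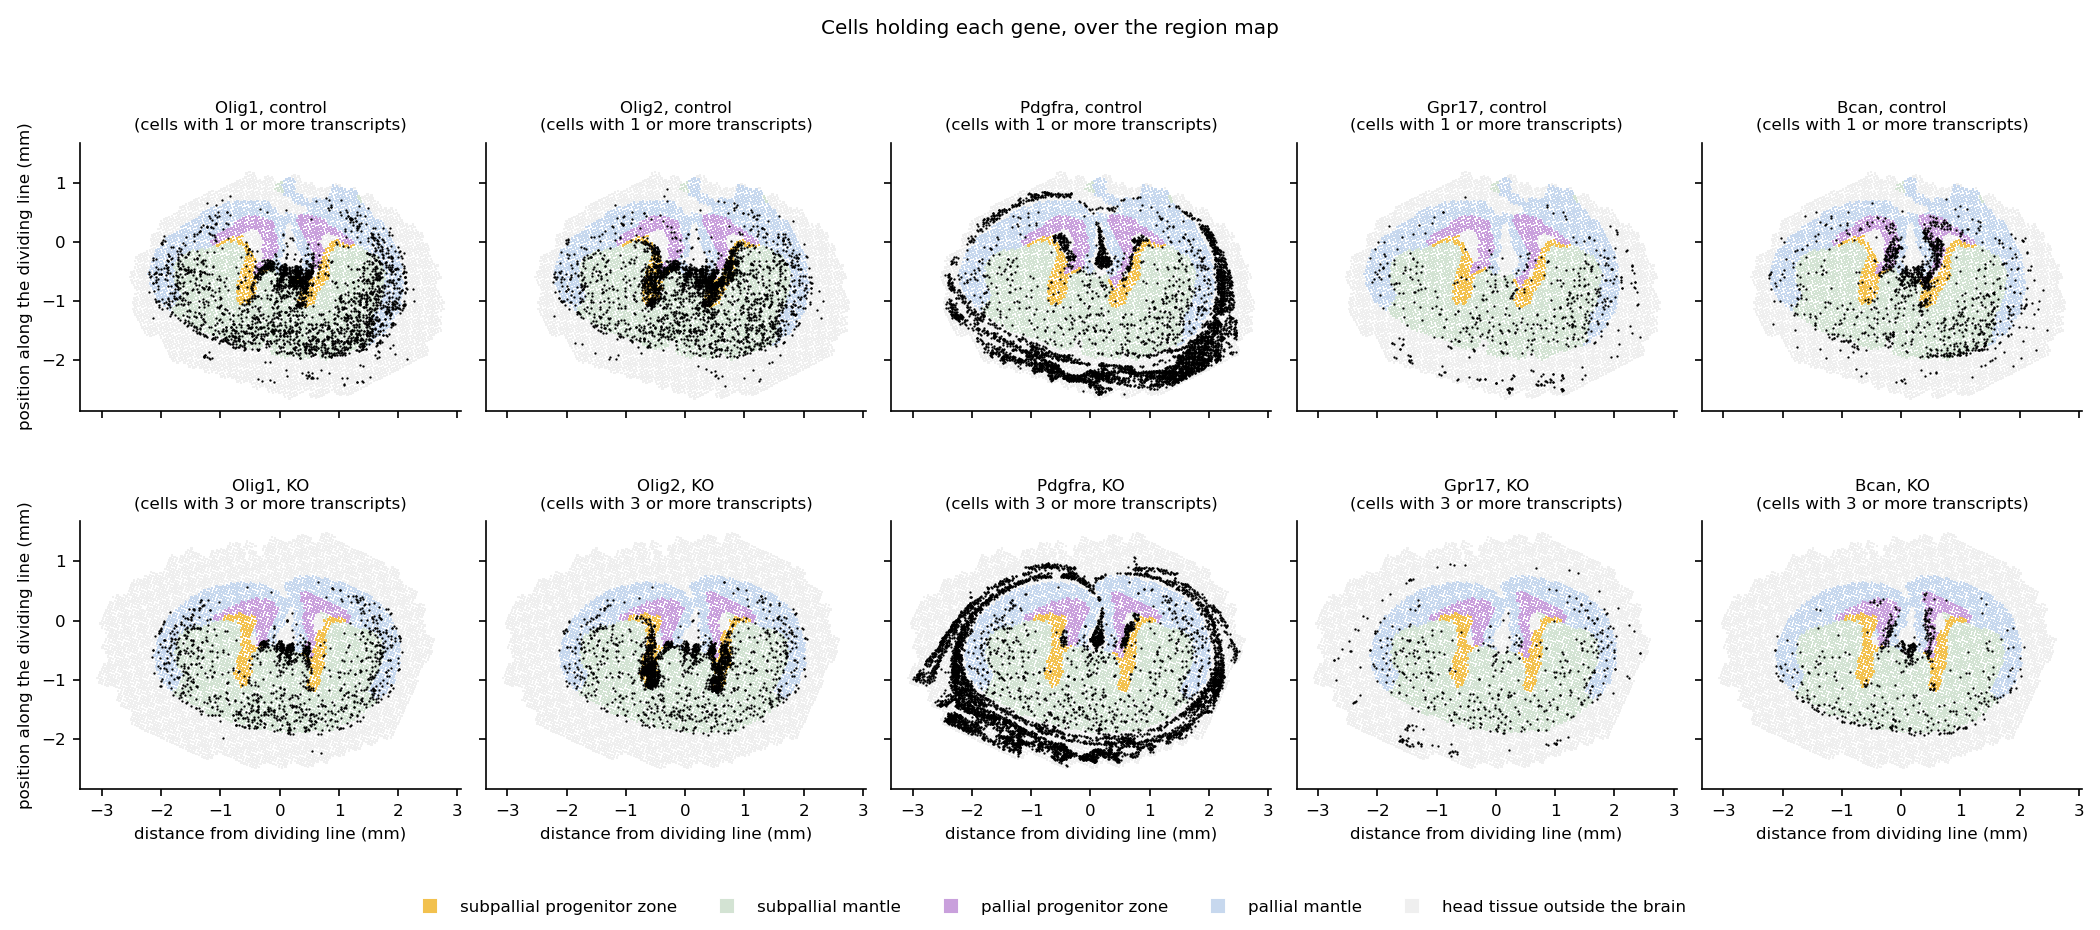
Cells holding each gene (points) over the region map of the control section (top, at least 1 transcript) and the KO section (bottom, at least 3 transcripts, as this section is deeper), axes in mm from and along the line between the hemispheres. By brain region, Olig2 was highest in the subpallial progenitor zone and Bcan in the pallial one. Pdgfra filled the tissue around the brain, and Gpr17 was scattered through both mantles.

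All cells, lineage cells included, were sorted into classes by markers other than the 5, a class being given to a cell with at least 3 transcripts of its markers. In the brain 56.5% of control and 22.9% of KO cells had no class. The astroglial or radial glial class (9 markers on the panel) made up 10.9% and 13.5% of cells. It held 44.8% and 59.4% of brain Olig2 transcripts, 57.8% and 67.0% of Bcan, 34.8% and 44.7% of Olig1, 30.8% and 44.0% of Pdgfra and 26.2% and 38.1% of Gpr17. Lineage cells carry some of these markers too, so the class and the lineage overlap.

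Within this class the genes parted by place. In the subpallial progenitor zone its cells held Olig2 at 21215 CPM and 14405 CPM, but Pdgfra at 640 CPM and 735 CPM and Gpr17 at 192 CPM and 160 CPM. In the subpallial mantle beyond 200 µm they held Olig2 at 14472 CPM and 15171 CPM, Pdgfra at 7385 CPM and 14171 CPM and Gpr17 at 3947 CPM and 6181 CPM. Olig1 went from 5250 CPM and 1530 CPM in the zone to 23979 CPM and 17988 CPM in that mantle. As a pooled level, the class thus held Olig2 with little of either receptor in the zone, and Olig2, Olig1 and both receptors far from it. Pooled levels do not show that single cells of the class held these genes together.

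Cells of the class of interneurons from the medial ganglionic eminence (MGE), marked by Lhx6, Sst, Npas1, Erbb4 and Elfn1, held Olig2 at higher levels in and near the zone than far from it. In the KO subpallial zone 399 of them held 488 Olig2 transcripts (8718 CPM [7962 to 9527]), and in the control 75 held 20 (8157 CPM [4982 to 12597]). Within 100 µm the level was 5054 CPM [2889 to 8207], which overlapped that of the zone, and 3142 CPM, beyond 200 µm 996 CPM and 644 CPM, and in the pallial mantle 685 CPM and 437 CPM. Olig1 did not go with it. In the KO zone these cells held 11 Olig1 and 6 Bcan transcripts beside the 488 of Olig2, where astroglial-class cells of the same zone held 633 Olig1 and 400 Bcan beside 5960 of Olig2. The receptors were not told apart between these classes of the KO zone, with Pdgfra at 679 CPM [480 to 932] and 735 CPM [654 to 822] and Gpr17 at 125 CPM and 160 CPM, with overlapping intervals. In the control zone the 75 cells held 0 Olig1 transcripts, which allows up to 1504 CPM. MGE-class cells beyond 200 µm held Olig1 at 1964 CPM and 953 CPM. The direction of Olig2 was not particular to this class. Striatal projection neurons of the KO section held Olig2 at 1696 CPM [1451 to 1970] within 100 µm and 559 CPM [527 to 593] beyond 200 µm. Their Olig1 was 218 CPM and 694 CPM at these distances. Transcripts from neighbouring cells may be counted in any class, and their part here was not tested.

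Other classes gave the level of genes that they should lack. After thinning, Olig2 was found in 22.0% and 17.5% of astroglial-class cells, in 2.94% and 2.81% of MGE-class cells, in 1.36% and 0.968% of cortical projection neurons and in 2.97% and 3.05% of endothelial cells. Brain endothelial cells are not known for Olig2, and the MGE share over the whole brain was no higher than theirs. Median depths before thinning were 37 and 112 transcripts in endothelial and 42 and 124 in MGE-class cells. Microglia of the brain (159 and 306 cells) held Olig1 at 3697 CPM [2344 to 5548] and 1985 CPM [1551 to 2504] and Pdgfra at 964 CPM and 1929 CPM, above cortical projection neurons (1157 and 670 CPM of Olig1). They held Gpr17 at 321 CPM and 447 CPM.

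Nearness to a cell with both Pdgfra and Gpr17 moved with the values of Olig1, Pdgfra and Gpr17. Of thinned brain cells without Pdgfra and Gpr17 together, those up to 12 µm from a cell with both held Olig1 in 22.4% of the control and 8.91% of the KO cells, and Pdgfra in 8.58% and 6.64%. Beyond 40 µm these shares were 4.46% and 1.19%, and 0.808% and 0.498%. Gpr17 went from 4.10% and 1.14% to 0.329% and 0.180%. Olig2 was held by 16.0% and 6.64% of the nearest cells, by 4.09% and 2.63% of those 20 to 40 µm away, and by 5.53% and 4.21% beyond 40 µm. Bcan went from 5.60% to 1.83% in the control, while the KO shares, 1.38% and 1.31%, had overlapping intervals. Cells with Pdgfra and Gpr17 were 74.8 µm from the next one in the control at the median and 15.7 µm in the KO section, where 49.0% against 7.21% had one within 15 µm. These are unthinned sets of 208 and 787 cells, whose number moves with depth, and no difference between sections is read.

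Outside the brain, Pdgfra was highest in mesenchymal cells. Cells of the mesenchymal or fibroblast class (6319 control and 13689 KO cells of the head tissue, with Dcn, Osr1 and others as markers) held it at 11688 CPM and 15315 CPM, which was 65.0% and 82.7% of the Pdgfra transcripts there. The class made up 40.6% and 55.4% of the cells of that tissue. Over the whole section this class held 56.2% and 69.1% of all Pdgfra. The same cells held Olig1 at 93.5 CPM and 89.1 CPM and Olig2 at 50.3 CPM and 67.1 CPM, below the highest blank code of the head tissue (389 CPM and 335 CPM). Gpr17 in them was 182 CPM [144 to 228] and 292 CPM [271 to 315], also below that code, while endothelial cells of the head held it at 29.1 CPM and 35.7 CPM. Those endothelial cells held Pdgfra at 5005 CPM and 6044 CPM. Microglia of the head held it at 6706 CPM and 8946 CPM, astroglial-class cells at 7208 CPM and 7148 CPM. Mural cells held 4577 CPM and 5330 CPM, and cells with no class 7453 CPM and 9031 CPM. The part of mesenchymal cells beside these classes in their levels was not tested. Astroglial-class cells in the head tissue held Olig1 at 3516 CPM and 4974 CPM. This area also holds cells of brain classes, among them 517 and 2039 cortical projection neurons and 1139 and 1724 astroglial-class cells, so it is not free of brain tissue.

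Between the sections, differences were read as log2 of KO over control CPM, without a pseudocount and with no replicate. Over the whole section 1 of the 5 genes was lower in the KO section by over 1.5-fold, Olig1, at -1.09 [-1.16 to -1.03]. Of 250 genes whose level reached the panel median, 8.80% were lower and 18.0% higher by that fold. Gpr17 is not among the 250 over the whole section, the brain or the pallial region, where it lay below the median. In the brain Olig1 (-1.35 [-1.42 to -1.28]), Olig2 (-0.66) and Bcan (-0.67) were lower by over 1.5-fold, where 14.8% of genes were lower and 15.2% higher. Olig1 was among the lowest of the 250, at percentile 0.400 of their ratios. Pdgfra (0.14) and Gpr17 (-0.28) were within 1.5-fold, and the median gene of the panel stood at 0.04.

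In the pallial region Olig1 (-1.33), Olig2 (-1.15) and Bcan (-0.74) were lower by over 1.5-fold, against 17.2% of genes lower and 14.4% higher. In the subpallial regions Olig1 (-1.35) and Bcan (-0.61) were, and Olig2 (-0.54) was not, against 14.4% lower and 15.6% higher. Olig2 took the place of Bcan with no minimum of transcripts, a minimum of 10 and all molecules. Counted per cell without scaling to depth, every gene moved up alike by the 1.65 (log2) that separates the sections in transcripts per cell, Olig1 to 0.56, so its direction is relative to the panel, where it was among the lowest. The hemispheres of a section, which are not replicates, held subpallial Olig1 at 2635 CPM and 3718 CPM in the control and 1185 CPM and 1402 CPM in the KO section, with no overlap. Subpallial Bcan did overlap, with 462 CPM and 856 CPM in the control and 437 CPM and 484 CPM in the KO section. Without the midline patch, chosen in each section by its own Olig1 peak, the brain value of Olig1 was -1.23. That of Olig2 was -0.54 [-0.61 to -0.47] and that of Bcan -0.57 [-0.69 to -0.44]. Olig2 and Bcan were then within 1.5-fold, but both intervals held that limit, so no change of call is read.

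Of 47 further genes listed for the oligodendrocyte lineage, 13 are on the panel. In the brain 2 were lower by over 1.5-fold, Cspg4 (-0.98, 930 CPM to 472 CPM) and Tcf7l2 (-1.16), a transcription factor of Wnt signalling. Sox6, a transcription factor of precursors and of MGE interneurons (0.66), and Enpp6, an enzyme of newly forming oligodendrocytes (0.71, at 67.5 CPM and 110 CPM), were higher, though Enpp6 lay within the range of the blank codes, up to 307 CPM and 233 CPM. Both counts are near the 14.8% and 15.2% of panel genes lower and higher in the brain. Those shares, here and below, are of genes that reached the panel median, a limit not set for the 13. Enpp6 lay below Gpr17, which did not reach that median in the brain. The median of the 13 was -0.13, beside 0.04 for the panel. In the pallial region 3 were lower, Cspg4 (-1.08), Tcf7l2 (-0.64) and Sox9 (-0.67), and 1, Sox6 (0.73), was higher, with a median of -0.34 beside -0.08 and against 17.2% of panel genes lower and 14.4% higher. In the subpallial regions 2 were lower and 2 higher, against 14.4% and 15.6%. Mog (68.2 and 64.5 CPM) and Opalin (104 and 104 CPM), genes of myelinating cells, also lay within the range of the blank codes.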

How the data were processed

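The authors decoded molecules and segmented cells on the MERSCOPE instrument, and deposited raw counts per segmented cell for 500 genes and 50 blank codes, cell volumes and positions, and a list of molecules in 7 imaging planes. The segmentation model is not given in the sources used here. Counts were analysed with Python 3.11.15, numpy 2.4.6, scipy 1.17.1, pandas 2.3.3 and scikit-learn 1.9.0, and figures used matplotlib 3.10.9. A cell needed 20 panel transcripts to enter, and no doublet caller was run. Regions were mapped on a grid (bin 25 µm, smoothing SD 50 µm) from 5 pallial, 12 subpallial and 6 mesenchymal genes, and progenitor zones were bins above percentile 85 of 2 genes (Top2a, Sox9). These map settings, and the use of 2 of the 3 listed progenitor genes on the panel, were decided once both sections had been looked at. A cell took the class with the highest summed marker count, if at least 3. Intervals are exact Poisson or Clopper-Pearson at 95%. The bounds of a ratio between sections pair opposite ends, so they are wider than 95%. The computation was tested on simulated data. The genes named are the 5, the 3 most alike to each by co-detection, except one for Olig2 that is not reported here, the listed lineage genes, class and map markers, and leading genes of the midline patch and of cell sets, chosen after their values were seen. Members and lists were chosen with earlier results of these data known. Gene positions and promoters are RefSeq's (GRCm38.p6), with the promoters of Olig2 and Pdgfra shown. The alternatives tried were cell minima, all molecules, 1 plane, other scalings, volume, hemispheres, seeds, thinning, lineage rules, smoothing and class minima.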

Additional observations from a re-analysis of the deposited data

Results flagged for a closer look

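In head tissue outside the brain, Gpr17 (log2 KO over control 0.37 [0.09 to 0.65]) and Bcan (0.33 [0.06 to 0.61]) were higher in the KO section, opposite in sign to the brain (-0.28 and -0.67). The median panel gene stood at 0.32 in that tissue and at 0.04 in the brain, so neither gene stood apart from the panel there. The difference between tissues was not tested. The area includes cells of brain classes, and astroglial-class cells held 38.7% (control) and 58.4% (KO) of its Bcan and 9.18% and 19.2% of its Gpr17. Mesenchymal-class cells held 36.7% and 56.1% of that Gpr17, at 182 and 292 CPM, and were 40.6% and 55.4% of the cells. The part of these classes in the values was not tested. Their levels in that tissue, 243 and 313 CPM for Gpr17 and 254 and 320 CPM for Bcan, lay below the highest blank code there (389 and 335 CPM).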

How the results depend on the processing

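No paired analysis was possible because each group is 1 section. The number of the 5 genes lower in the KO section by over 1.5-fold over the whole section, 1, was 2 with no minimum, a minimum of 10, all molecules and hemisphere pairings 1 and 3, and 0 per cell. In the pallial region, 3 became 0 per cell, and with a minimum of 50 the 3 were Olig1, Olig2 and Gpr17 (-0.74), without Bcan (-0.31). In the subpallial regions the 2 were Olig1 and Olig2, without Bcan, with no minimum, a minimum of 10 and all molecules. In the subpallial regions, 2 became 1 with imaging plane 0 and with pairings 1 and 2, 0 per cell, and 3 with pairing 3 and with scaling without the 20 most abundant genes. Per cell, without scaling to the depth of the section, the log2 ratio turned to 0.56 (whole section), 0.37 (pallial) and 0.42 (subpallial) for Olig1, to 0.56 for pallial Olig2, and to 0.97 and 1.17 for pallial and subpallial Bcan. This setting adds the same amount to every gene, 1.65 (whole section), 1.71 (pallial) and 1.78 (subpallial), the difference in transcripts per cell, and leaves the order of the genes as it was. With a minimum of 50, whole-section Olig2 went from -0.47 to 0.25, Pdgfra from 0.03 to -0.48 and Gpr17 from -0.07 to 0.09. Whole-section Bcan was 0.08 in pairing 2. Subpallial Bcan was 0.07 in pairing 2. For these values other than per cell the cause was not tested.

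Co-detection of Pdgfra with Gpr17 was 4.74 in the control section and 3.39 in that of the KO without thinning, 27.9 and 26.8 with at least 2 transcripts, and 30.5 and 32.7 in brain cells. Seed 2 gave 6.76 in the KO section. In each section 7 to 10 pairs reached 3 times under every alternative run. The share of lineage cells was 0.357% and 0.757% with 4 genes required, 0.645% and 1.17% without Bcan, 0.624% and 0.359% after thinning, 1.40% and 2.03% with a minimum of 50, 1.26% and 1.99% in the brain, and 0.782% and 1.10% (control) and 1.52% and 2.10% (KO) in single hemispheres. The fold of Olig2 in the zone was 13.0 and 9.14 in the KO hemispheres, and 5.99 (control) and 7.97 (KO) with Ccnd2 added to the map. The share of Olig2 in astroglial-class cells of the whole section, 44.9% and 59.1%, was 30.3% and 54.0% with 5 marker transcripts, and 48.1% in the control with a minimum of 50. The brain-only and Ccnd2 alternatives were chosen after seeing the data. Depth limits the control most, where 50.9% of cells reached 20 transcripts.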
